A study of Mus musculus with 8 samples.

Results

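The genes described here are mucins and goblet cell regulators: the membrane mucins Muc1, Muc4, Muc16 and Muc20, the gel-forming mucins Muc5b and Muc5ac, the regulators Spdef and Agr2, and the goblet cell products Tff2 and Clca1. They were chosen by symbol, by matching the Ensembl identifiers of the count table to gene names. Of the 10 symbols, 9 matched 1 of the 43432 rows of the table, and 8 of these passed the filter on low counts, among 14906 tested genes. Muc5ac did not pass the filter and is given by its counts. Muc16 matched no row and was not analysed here.

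RNA was sequenced from sorted lung cells of C57BL/6J mice aged 14 weeks in 8 libraries. Every library came from the EpCAM+CD45- gate, which takes cells with the epithelial surface protein EpCAM and leaves out leukocytes. The wild-type libraries (WT, n = 3) held that whole gate. The heterozygous (C/+, n = 3) and homozygous (C/C, n = 2) ChiaRed libraries held only the ChiaRed+ cells within it. ChiaRed is a reporter of Chia1, the gene of acidic mammalian chitinase (AMCase), so ChiaRed+ cells are those that report expression of that gene. WT therefore differed from both reporter groups in sorting and in genotype together, and these cannot be told apart. C/+ and C/C differed in the number of reporter alleles and in Chia1 transcript. Chia1 had 3795 to 9298 counts in C/+ and 63 and 14 in C/C. Allele number and Chia1 level cannot be told apart here. No label states that each library is a separate animal, so the p-values set group differences against a spread between libraries that may be technical.

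Mucins are large, heavily O-glycosylated proteins of the airway surface. Membrane mucins such as Muc1 and Muc4 are anchored in the apical membrane of epithelial cells, whereas gel-forming mucins such as Muc5b and Muc5ac are packed into granules and released as the polymers of mucus. In the mouse airway Muc5b is made at steady state by secretory (club) cells, and Muc5ac, Clca1 and Tff2 are known for their induction with goblet cell differentiation under type 2 cytokines. Spdef is the ETS-family transcription factor of that programme, and Agr2 is an endoplasmic reticulum protein disulfide isomerase needed for mucin folding.

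RefSeq windows of the 250 bases before the annotated start were available for 6 of the 10 genes on GRCm38.p6. The windows of Muc1, the most abundant mucin transcript here, of Muc4, and of the regulators Spdef and Agr2 are shown because their transcripts differ widely in level within these cells. Each is written 5′ to 3′ on the strand of the gene, and capitals mark matches to the motifs searched. Muc1 lies at chr3:89228806-89229055 on the plus strand, Muc4 at chr16:32735636-32735885 on the plus strand, Spdef at chr17:27728952-27729201 on the minus strand and Agr2 at chr12:35992675-35992924 on the plus strand.
Muc1: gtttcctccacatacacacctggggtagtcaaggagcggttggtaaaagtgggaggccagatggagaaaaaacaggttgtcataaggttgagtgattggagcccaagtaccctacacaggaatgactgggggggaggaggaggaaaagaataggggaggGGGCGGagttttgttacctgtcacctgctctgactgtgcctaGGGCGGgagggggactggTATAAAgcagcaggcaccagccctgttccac
Muc4: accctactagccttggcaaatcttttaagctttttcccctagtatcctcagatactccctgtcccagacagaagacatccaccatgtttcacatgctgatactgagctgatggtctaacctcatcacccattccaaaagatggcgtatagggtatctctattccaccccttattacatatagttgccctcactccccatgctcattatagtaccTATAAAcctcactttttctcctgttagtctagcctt
Spdef: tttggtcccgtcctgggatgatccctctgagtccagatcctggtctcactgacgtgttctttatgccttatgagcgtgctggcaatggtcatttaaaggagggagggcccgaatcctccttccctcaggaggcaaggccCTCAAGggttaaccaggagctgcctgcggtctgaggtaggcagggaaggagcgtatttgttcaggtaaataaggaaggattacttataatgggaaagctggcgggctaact
Agr2: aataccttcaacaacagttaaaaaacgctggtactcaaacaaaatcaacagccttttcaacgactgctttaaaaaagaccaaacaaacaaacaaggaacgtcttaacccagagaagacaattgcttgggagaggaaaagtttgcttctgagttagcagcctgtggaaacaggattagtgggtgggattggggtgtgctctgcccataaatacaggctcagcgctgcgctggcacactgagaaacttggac

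The motifs searched on both strands were the TATA box TATAAA, the GC box GGGCGG, the forkhead core TGTTTA, the NKX2-1 core CTCAAG, the ETS cores CCGGAA and CCGGAT, and the STAT sites TTCNNNGAA and TTCNNNNGAA. Muc1 held TATAAA from 31 to 26 bases before its start and GGGCGG from 91 to 86 and from 49 to 44 bases before it. Muc4 held TATAAA from 36 to 31 bases before its start, and Spdef held CTCAAG from 111 to 106 bases before its own. The Agr2 window matched none of the 8 motifs, which says only that these letters are not in this window. The window of Muc20 matched the forkhead core alone, from 247 to 242 bases before the start, and no match in any of these windows overlapped another. Among all 32851 windows, TATAAA was in 12.4%, GGGCGG in 32.7%, TGTTTA in 12.0%, CTCAAG in 13.3%, CCGGAA in 12.0%, CCGGAT in 4.94%, TTCNNNGAA in 7.02% and TTCNNNNGAA in 5.85%. A match is a description of the sequence and not of a bound factor.

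Total counts ran from 17057216 to 52319957 per library. Levels are given as CPM, counts per 1000000 counts after scaling of the libraries by trimmed means (TMM), with the mean and SD over the libraries of a group, and 3 counts corresponded to 0.0558 to 0.176 CPM. Epcam stood at 157 to 202 CPM and the leukocyte gene Ptprc at 0.118 to 1.80 CPM. Chia1, at the reporter locus, had 63 and 14 counts in the C/C libraries and 3795 to 22881 in the other 6. By Xist and Y-linked counts WT 2, WT 3 and C/+ 1 were male and the other 5 libraries female. A gene was called when its Benjamini-Hochberg adjusted p in edgeR's two-sided quasi-likelihood test over all tested genes was under 0.05, and changes are log2 fold changes of that fit with their standard errors (SE). The comparisons of C/+ with WT and of C/C with C/+ share the C/+ libraries and are not independent of each other.

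Muc1 was abundant in every library and varied little. Per kilobase of exon it stood at 773 ± 41.9 CPM in WT, 751 ± 134 in C/+, with 893 ± 144 in C/C (SD), which placed it 31st, 32nd and 30th among 14802 genes ranked by that measure, where the median gene stood at 3.49, 3.52 and 3.36 CPM per kilobase. Muc4 followed at 9.28 ± 2.52, 10.6 ± 4.04 and 8.75 ± 1.77 CPM per kilobase, and Muc20 at 3.28 ± 0.283, 5.41 ± 2.27 and 4.67 ± 0.917. Spdef came next in WT and C/C, at 2.52 ± 0.248 and 3.11 ± 0.0256 CPM per kilobase, with 2.40 ± 0.544 in C/+. The gel-forming mucins lay far lower, Muc5b at 0.136 ± 0.0639 CPM per kilobase in WT, 0.805 ± 0.601 in C/+, with 0.0148 ± 0.00364 in C/C. In C/+, Tff2 (3.08 ± 2.18 CPM per kilobase) could not be ordered against Spdef or Muc20 beyond the spread, nor Clca1 (0.858 ± 0.729) against Muc5b. In WT, Agr2 (0.173 ± 0.205 CPM per kilobase) and Muc5b could likewise not be ordered, nor Tff2 (1.07 ± 1.26) against its neighbours.

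**Figure D1:**
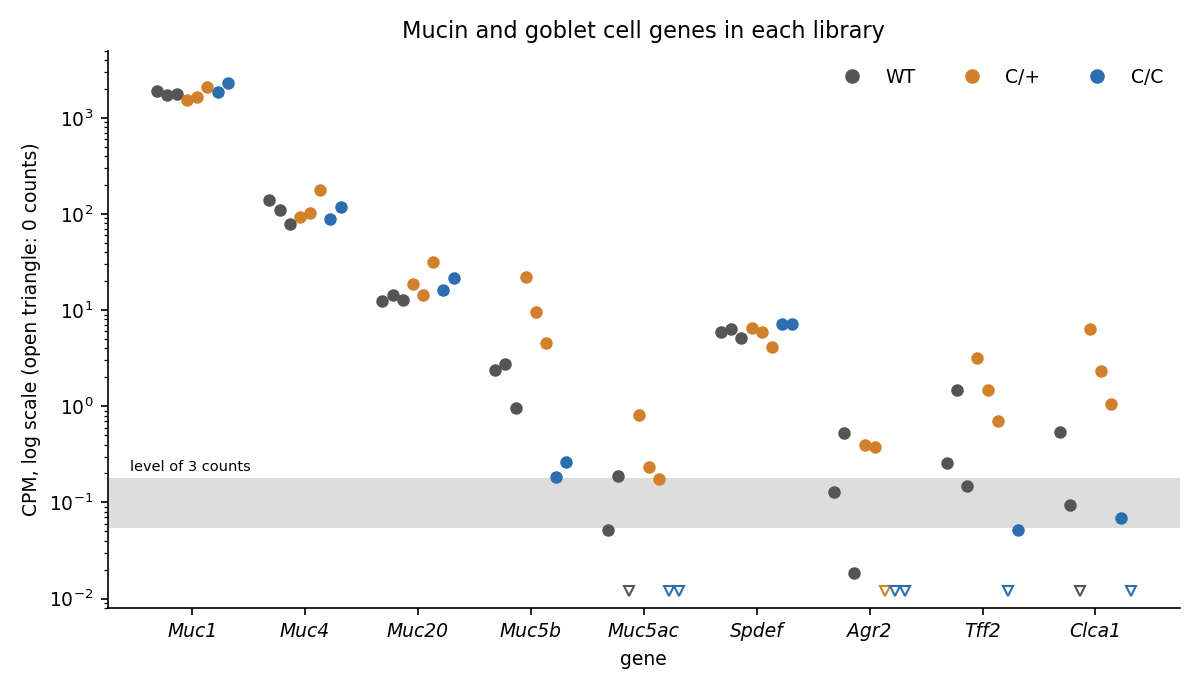
Level of each gene in each library in CPM on a log scale, with open triangles for libraries with 0 counts and a grey band for the range of 3 counts. Muc1, Muc4, Muc20 and Spdef span 1.53- to 2.59-fold from their lowest to their highest library. By group mean Muc5b, Tff2 and Clca1 stand highest in C/+ and lowest in C/C, where Muc5ac and Agr2 have no counts. Single libraries of Tff2 overlap between C/+ and WT, and those of Clca1 between WT and C/C.

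Muc1 (ENSMUSG00000042784), a signalling membrane mucin that alveolar type 2 cells also carry, lies at chr3:89229057-89233381 on the plus strand of GRCm38, downstream of the window with the TATA box and the 2 GC boxes shown above. It stood at 1927, 1746 and 1769 CPM in WT 1, 2 and 3, at 1529, 1636 and 2120 CPM in C/+ 1, 2 and 3, and at 1856 and 2333 CPM in C/C 1 and 2. C/C 2 was the highest and C/+ 1 the lowest library, 1.53-fold apart, and all 3 groups overlapped. The log2 fold change was -0.04 (SE 0.14, adjusted p = 0.895) for C/+ against WT, 0.25 (SE 0.16, adjusted p = 0.420) for C/C against C/+ and 0.21 (SE 0.16, adjusted p = 0.483) for C/C against WT by edgeR. Relative to Sftpc, the surfactant gene of type 2 cells, Muc1 ran from 1029 to 1846 counts per 100000 Sftpc counts over the 8 libraries.

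Muc4 (ENSMUSG00000079620), a membrane mucin known as a ligand of the receptor ERBB2, lies at chr16:32735886-32782391 on the plus strand. It stood at 138, 109.8 and 79.2 CPM in the WT libraries, at 92.5, 101.8 and 179 CPM in C/+ and at 88.1 and 118 CPM in C/C. The groups overlapped, with C/+ 3 highest. The log2 fold changes of 0.19 (SE 0.26, adjusted p = 0.729), -0.27 (SE 0.29, adjusted p = 0.669) and -0.09 (SE 0.29, adjusted p = 0.902) in the same order of comparisons were all smaller than their SE.

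Muc20 (ENSMUSG00000035638), a small membrane mucin that binds the receptor MET, lies at chr16:32777419-32797435 on the minus strand, tail to tail with Muc4. It stood at 12.4, 14.5 and 12.8 CPM in WT, at 18.8, 14.5 and 32.1 CPM in C/+ and at 16.2 and 21.4 CPM in C/C. The C/C libraries both lay above the WT libraries, while C/+ 2 lay within the WT range and C/+ 3 was again the highest. By edgeR the log2 fold change was 0.72 (SE 0.25, adjusted p = 0.145) for C/+ against WT, -0.21 (SE 0.28, adjusted p = 0.746) for C/C against C/+ and 0.51 (SE 0.27, adjusted p = 0.305) for C/C against WT. DESeq2 called the difference between C/+ and WT (adjusted p = 0.0458), and so did edgeR without the filter on low counts (adjusted p = 0.00542). Muc20 and Muc4 overlap over 4973 bases, of which 627 are exonic in both, against 4027 exonic bases in Muc20 and 11757 in Muc4. The strand setting of the counting is not given in the sources used here, so reads from those 627 bases may be shared. The ratio of Muc4 to Muc20 counts ran from 4.92 to 11.2 over the libraries, with WT 1 the highest and C/+ 1 the lowest.

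**Figure D2:**
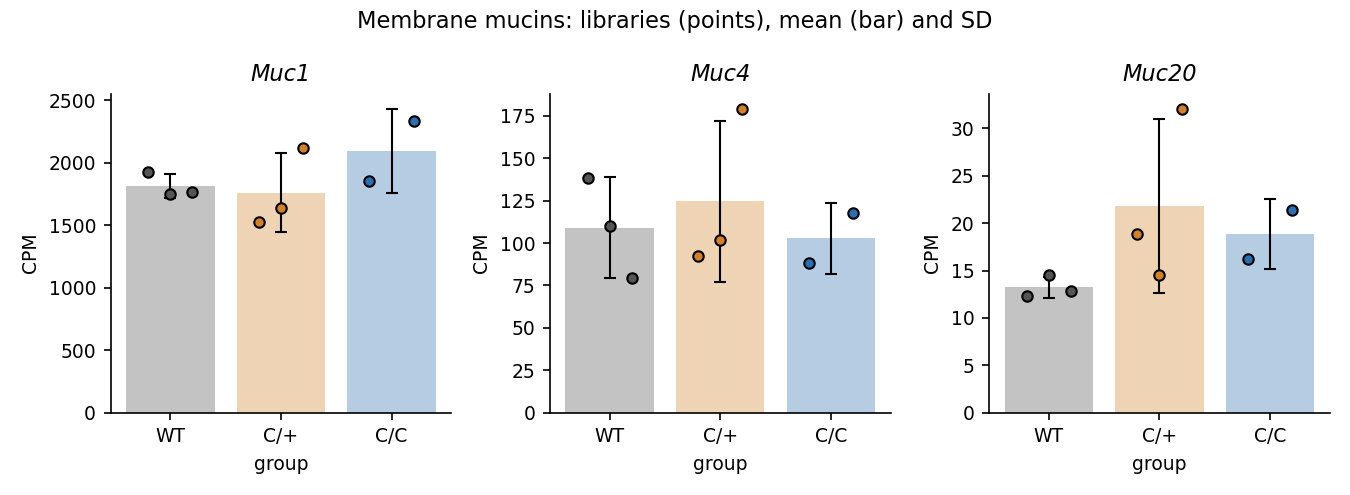
Level of Muc1, Muc4 and Muc20 in CPM by group, each axis starting at 0, with points for libraries, bars for means and lines for SD. Library C/+ 3 stands highest of the C/+ libraries in all 3 panels, at 2120 CPM for Muc1, 179 CPM for Muc4 and 32.1 CPM for Muc20.

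Muc5b (ENSMUSG00000066108), the main gel-forming mucin of the normal mouse airway, changed most clearly among these genes: it rose in C/+ against WT and fell in C/C against C/+. It lies at chr7:141839070-141873084 on the plus strand. The WT libraries held 93, 58 and 51 counts, or 2.40, 2.75 and 0.948 CPM. The C/+ libraries held 675, 204 and 78 counts, or 22.0, 9.52 and 4.59 CPM, and the C/C libraries 8 and 10 counts, or 0.184 and 0.261 CPM. No library of a group overlapped another group, and C/+ 1 stood 120-fold above C/C 1.

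The WT mean was 2.03 ± 0.957 CPM, and Muc5b rose to 12.05 ± 8.99 CPM in the C/+ libraries (log2FC 2.61, SE 0.55, adjusted p = 0.0314 by edgeR). It fell to 0.222 ± 0.0545 CPM in C/C, with a log2FC of -5.76 against C/+ (SE 0.81, adjusted p = 0.0027). The log2FC of -3.15 for C/C against WT was not called (SE 0.79, adjusted p = 0.0609), although it was called by DESeq2 (adjusted p = 0.00538) and by edgeR with the 2 groups fitted alone (0.0345) or with no filter on low counts (1.6e-06). Among the female libraries, WT 1 had 2.40 CPM of Muc5b, C/+ 2 and 3 had 9.52 and 4.59 CPM, and the C/C libraries 0.184 and 0.261 CPM. Among the males, WT 2 and 3 had 2.75 and 0.948 CPM, below C/+ 1 with 22.0 CPM. In sorted bulk samples such as these, fewer cells of a type and less RNA per cell cannot be told apart.

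The call of C/+ against WT was lost when the 2 groups were fitted alone (adjusted p = 0.0528) and without WT 2 (0.0778), WT 3 (0.0908), C/+ 1 (0.103, log2FC 1.83), C/+ 2 (0.0695), C/C 1 (0.0515) or C/C 2 (0.0522). The call of C/C against C/+ was lost without C/C 1 alone (adjusted p = 0.0568, log2FC -5.52), and C/C against WT became a call without WT 3 (0.046), C/+ 1 (0.031) or C/+ 3 (0.0292).

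Muc5ac (ENSMUSG00000037974), the inducible gel-forming mucin of goblet cells, was near the detection limit. It lies next to Muc5b at chr7:141788972-141819231 on the plus strand. It had 2, 4 and 0 counts in WT, 25, 5 and 3 in C/+, with 0 and 0 in C/C, where 3 counts would have been 0.0688 and 0.0782 CPM. Most of its counts came from C/+ 1, which also held the most Muc5b, and no other library passed 5 counts. The C/+ mean of 0.409 ± 0.354 CPM was at least 5.56-fold higher than C/C, with the C/C libraries set at a floor of 3 counts each. That bound takes the C/+ mean as exact. With no filter on low counts edgeR called Muc5ac lower in C/C than in C/+ (adjusted p = 0.0237) but called no difference of C/+ or C/C from WT (adjusted p = 0.298 and 0.288).

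Along chromosome 7 the annotation places Ap2a2, Muc6, Muc2, Muc5ac, Muc5b, Tollip, Brsk2 and Mob2 in this order, with 19838 bases between Muc5ac and Muc5b and 1728 bases between Muc5b and Tollip. The other gel-forming mucins of the cluster were at 0 or low. Muc6, a gastric mucin, had 0 counts in all 8 libraries, and Muc2, the intestinal mucin, had 6 to 21 counts in each. In C/C, Muc2 stood at 0.299 ± 0.128 CPM, not below Muc5b at 0.222 ± 0.0545 CPM. Of the flanking genes, Brsk2, a kinase of polarised neurons, had 0 to 2 counts in each library and was not tested, whereas Ap2a2, Tollip and Mob2 were well expressed and none of these 3 was called. Ap2a2, an adaptor protein subunit, stood at 58.1, 57.9 and 57.9 CPM in WT, C/+ and C/C, Tollip, a regulator of Toll-like receptor signalling, at 87.5, 80.3 and 76.1 CPM, and Mob2, a kinase regulator, at 42.9, 44.0 and 49.9 CPM. Of the 5 tested genes of the cluster, Muc5b was the 1 called in C/+ against WT and in C/C against C/+, and 0 were called in C/C against WT by edgeR (2 with p under 0.05 before adjustment, 1 with DESeq2). Over all tested genes the shares called were 3.92%, 7.08% and 2.98% in the same order.

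**Figure D3:**
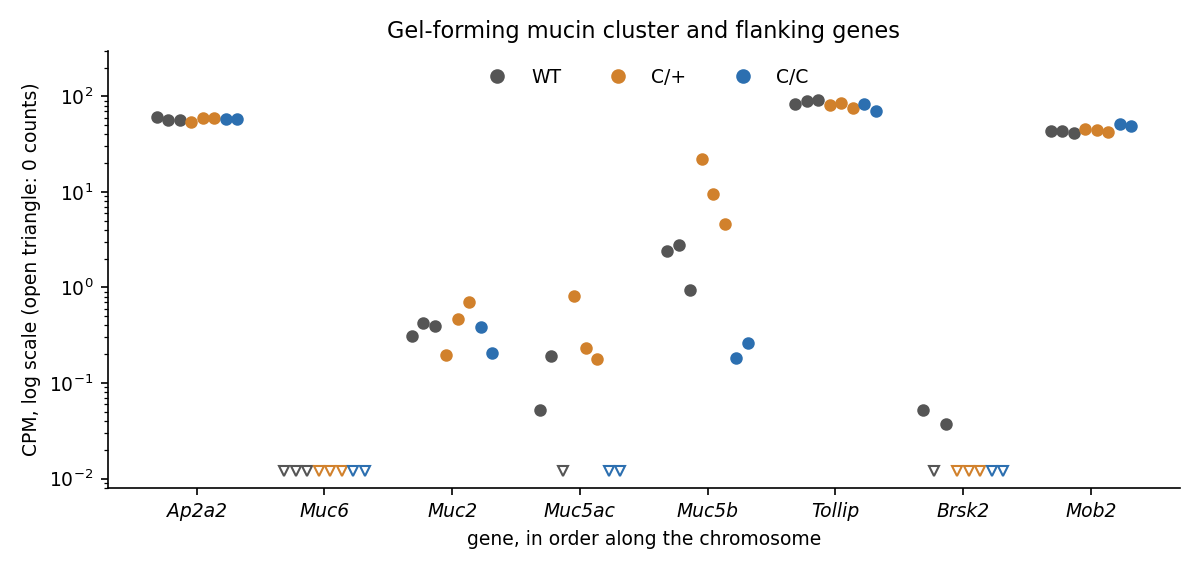
Level in CPM on a log scale of the gel-forming mucin cluster and its flanking genes, in chromosomal order, with 1 point per library and open triangles for 0 counts. Muc5b spreads from 0.184 to 22.0 CPM, whereas the points of Ap2a2, Tollip and Mob2 lie close together.

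Spdef (ENSMUSG00000024215), the transcription factor of goblet cell differentiation, lies at chr17:27714352-27728955 on the minus strand, and its window above held the NKX2-1 core. It had 230, 133 and 279 counts in WT, 200, 127 and 70 in C/+, with 311 and 277 in C/C. These were 5.95, 6.31 and 5.19 CPM, 6.53, 5.92 and 4.12 CPM, and 7.14 and 7.22 CPM. The C/C libraries lay narrowly above all others, and WT and C/+ overlapped. The log2 fold change was -0.06 (SE 0.20, adjusted p = 0.891) for C/+ against WT, 0.37 (SE 0.22, adjusted p = 0.396) for C/C against C/+ and 0.31 (SE 0.22, adjusted p = 0.455) for C/C against WT by edgeR. Spdef thus showed no called difference in either comparison in which Muc5b did, and whether the changes of these 2 genes differ was not tested.

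Agr2 (ENSMUSG00000020581), the disulfide isomerase of mucin folding, was near 0 in all groups. It lies at chr12:35992907-36004087 on the plus strand and had 5, 11 and 1 counts in WT, 12, 8 and 0 in C/+, with 0 and 0 in C/C. WT and C/+ overlapped, and C/C shared the value of 0 with C/+ 3. Its log2 fold change for C/+ against WT was 0.46 (SE 1.21, adjusted p = 0.866). With C/C at a floor of 3 counts per library, the C/+ mean of 0.255 ± 0.221 CPM was at least 3.47-fold higher than C/C and the WT mean of 0.223 ± 0.264 CPM at least 3.04-fold higher, and neither difference was called by edgeR (adjusted p = 0.172 and 0.207). These bounds take the C/+ and WT means as exact, although their SDs are about as large as the means.

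Tff2 (ENSMUSG00000024028), a trefoil peptide secreted with mucus, fell in C/C against C/+. It lies at chr17:31141049-31144282 on the minus strand. It had 10, 31 and 8 counts in WT, 98, 32 and 12 in C/+, with 0 and 2 in C/C. The 3 C/+ libraries (3.20, 1.49 and 0.706 CPM) overlapped the WT libraries (0.259, 1.47 and 0.149 CPM), and the C/C libraries (0 and 0.0521 CPM) lay below both. By summed counts scaled to CPM, C/+ exceeded C/C 84.2-fold, with a 95% exact interval for counting error alone of 22.9 to 702, and edgeR called the difference (adjusted p = 0.0305). For C/+ against WT the log2FC was 1.66 (SE 0.87, adjusted p = 0.324), and it ran from 0.93 without C/+ 1 to 3.16 without WT 2 (adjusted p = 0.113). WT exceeded C/C 17.7-fold (4.64 to 150.1), which edgeR did not call (adjusted p = 0.117) and DESeq2 did (adjusted p = 0.0137). The call of C/C against C/+ was lost without C/+ 1 (adjusted p = 0.0804), C/+ 2 (0.0635), C/C 1 (0.255) or C/C 2 (0.128).

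Clca1 (ENSMUSG00000028255), a secreted metalloprotease of goblet cell mucus, also fell in C/C against C/+. It lies at chr3:145003817-145032776 on the minus strand. It had 21, 2 and 0 counts in WT, 194, 50 and 18 in C/+, with 3 and 0 in C/C. In CPM the C/+ libraries (6.33, 2.33 and 1.06) all lay above WT (0.543, 0.0949 and 0), and WT overlapped C/C (0.0688 and 0). By summed counts C/+ exceeded C/C 103.6-fold (95% exact interval for counting error 35.1 to 505.6), which edgeR called (adjusted p = 0.0321). The log2FC of 3.92 for C/+ against WT had a wide error (SE 1.06, adjusted p = 0.0702). It became a call with sex as a covariate (adjusted p = 0.0399), without the filter on low counts (6.2e-06), without WT 1 (0.0181, log2FC 6.65) and without C/+ 3 (0.0443). Over the libraries left out in turn the log2FC ran from 2.98, without C/+ 1, to 6.65. WT exceeded C/C 5.53-fold (1.67 to 28.8), which was not called (adjusted p = 0.426). The call of C/C against C/+ was lost without C/+ 1 (adjusted p = 0.0961), C/+ 2 (0.0657), C/C 1 (0.177) or C/C 2 (0.230).

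Across the 8 tested genes, 1 was called in C/+ against WT, Muc5b, which rose, while 3.92% of all 14906 tested genes were called, 3.42% higher and 0.503% lower. At an unadjusted p under 0.05 there were 3, and DESeq2 called 2. In C/C against C/+, 3 of the 8 were called, Muc5b, Tff2 and Clca1, all lower, while 7.08% of all tested genes were called, 1.75% higher and 5.33% lower. Tff2 and Clca1 passed the filter only through C/+, where they are high, so this count cannot be weighed against that share. DESeq2 likewise called 3 in that comparison, and 4 had an unadjusted p under 0.05. Between C/C and WT, edgeR called 0 of the 8, with 3 at an unadjusted p under 0.05 and 2 called by DESeq2, while 2.98% of all tested genes were called, 1.62% higher and 1.36% lower.

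Libraries of the 2 groups did not overlap for 2 of the 8 in C/+ against WT (24.8% of all tested genes), for 4 in C/C against C/+ (38.3%) and for 5 in C/C against WT (43.3%). The median log2 fold change of the 8 was 0.59 in C/+ against WT, beside 0.00496 over all tested genes. With Agr2 set at its bound it was -1.03 in C/C against C/+ and -0.84 in C/C against WT, beside -0.00817 and -0.026 over all tested genes, and as fitted it was -3.02 and -1.26. Tff2, Clca1 and Agr2 passed the filter only through C/+, since it asks for 0.301 CPM in 2 libraries, the size of the smallest group. At that minimum stood 3 C/+ libraries, 1 WT library and 0 C/C libraries for Tff2 and for Clca1, and 2, 1 and 0 for Agr2. Counts and medians over the tested genes therefore lean towards genes that are high in C/+.

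**Figure D4:**
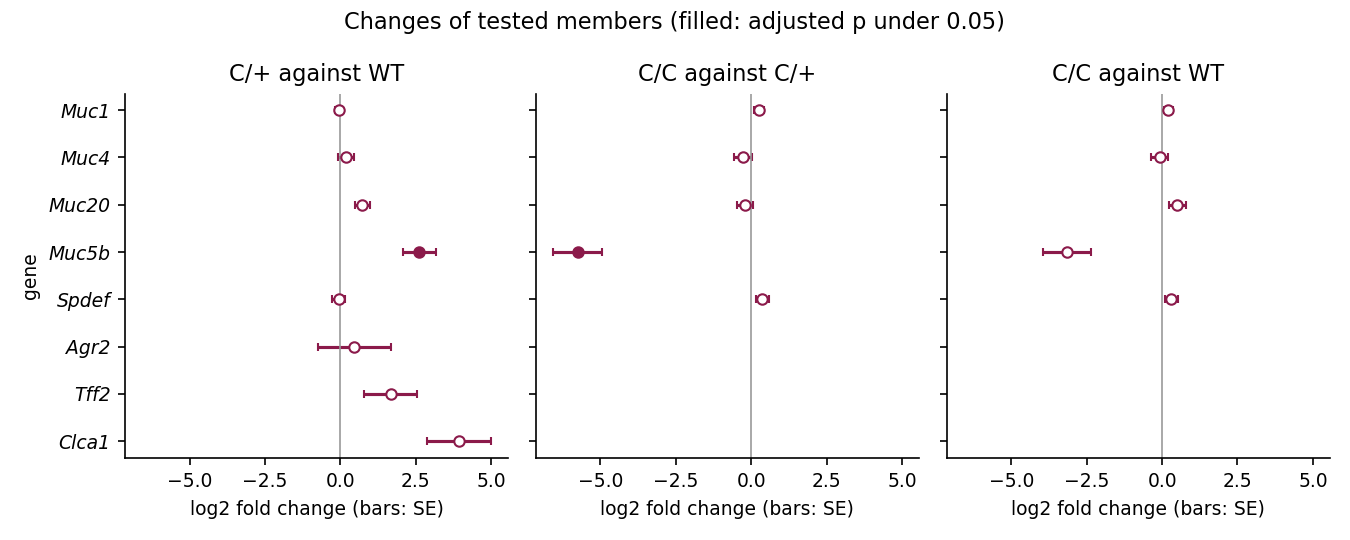
Log2 fold change of each tested gene with its SE in the 3 comparisons, filled where the adjusted p was under 0.05; no point is drawn where a group had 3 or fewer counts in all. Muc1, Muc4, Muc20 and Spdef stay within 1 unit of 0 in all 3 panels, and Muc5b stands at 2.61 in C/+ against WT and at -5.76 in C/C against C/+. Tff2 and Clca1, which were called in C/C against C/+, have no point there because C/C held 2 and 3 counts.

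Several lists of markers of other cell types, like Muc5b, held genes called higher in C/+ than in WT and lower in C/C than in C/+. Tff2 and Clca1 were called only in the latter comparison. Scgb1a1, the main secretoglobin of club cells, stood at 291, 823 and 290.5 CPM in WT, 8388, 5028 and 4482 CPM in C/+, with 343 and 549 CPM in C/C. It rose in C/+ against WT (log2FC 3.67, adjusted p = 0.00906) and fell in C/C against C/+ (log2FC -3.74, adjusted p = 0.0027), while C/C and WT overlapped (log2FC -0.07, adjusted p = 0.951). In C/+ against WT 3.92% of all tested genes were called, 3.42% higher, and in C/C against C/+ 7.08% were called, 5.33% lower. Of 8 club markers, 6 were called higher in C/+ than in WT and 6 lower in C/C than in C/+. Their summed level was 1155 to 1933 CPM in WT, 6103 to 10689.6 CPM in C/+ and 1579 to 1841 CPM in C/C. The endothelial, mesothelial and mesenchymal lists moved likewise. All 9 endothelial markers were called in both comparisons, with sums of 52.6 to 227 CPM in WT, 450.5 to 759 in C/+ and 36.9 to 45.3 in C/C. Of 7 mesothelial markers 5 and 7 were called, with sums of 8.87 to 31.6, 67.4 to 200.1 and 6.80 to 8.26 CPM, and of 7 mesenchymal markers 5 and 6, with sums of 16.1 to 39.6, 79.5 to 217 and 14.1 to 17.3 CPM. No marker of these 4 lists was at 0 in any library, and their part in the changes of the mucin genes was not tested. In C/C against WT, 3 of 9 ciliated markers were called, all lower (Foxj1, a ciliogenesis factor, and the ciliary genes Dnah9 and Ccdc39), with a list median of -1.69 beside -0.026 over all tested genes. Of all tested genes, 2.98% were called in C/C against WT, 1.62% higher and 1.36% lower. Dnah9 and Ccdc39 were also called lower in C/C than in C/+, and 0 of the 9 were called in C/+ against WT by edgeR (0 with p under 0.05 before adjustment, 0 with DESeq2). Their summed level, which follows the most abundant markers, overlapped between the groups, at 167 to 250.4 CPM in WT, 140.3 to 310.1 in C/+ and 172 to 194 in C/C. No ciliated marker was at 0. Marker by marker, libraries of C/C and WT did not overlap for 7 of the 9, beside 43.3% of all tested genes, and DESeq2 called 6. Of the club markers, 2 were called in C/C against WT, Scgb3a1 lower (log2FC -4.02, adjusted p = 0.0471) and Hp, which encodes haptoglobin, higher (log2FC 0.55, adjusted p = 0.0392), with a list median of -0.74. Calcrl was the 1 endothelial marker called, lower (4 with DESeq2), with a list median of -1.74. The part of these markers in the values of the mucin genes was not tested either. Of 9 alveolar type 2 markers, edgeR called 0 in C/+ against WT (2 with p under 0.05 before adjustment, 0 with DESeq2) and 0 in C/C against C/+ (1 and 0). In C/C against WT it also called 0 of the 9 (4 and 3). Libraries of C/C and WT did not overlap for 8 of these 9, beside 43.3% of all tested genes. Their median log2FC there was 0.12.

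Set against Scgb1a1 in the same library, Muc5b took a different order of groups. Muc5b had 8.27, 3.34 and 3.26 counts per 1000 Scgb1a1 counts in WT, 2.63, 1.89 and 1.02 in C/+, with 0.535 and 0.474 in C/C. By this ratio WT was highest and C/C lowest, the groups did not overlap, and the range over libraries was 17.4-fold where that of the Muc5b CPM was 120-fold. The means were 4.96 ± 2.87, 1.85 ± 0.802 and 0.505 ± 0.0429, and groups of 3 against 3 or 3 against 2 cannot reach an exact two-sided permutation p below 0.1 or 0.2. Both C/C libraries lay within the WT range of Scgb1a1 CPM, and the Muc5b ratio was lower in both C/C libraries than in each WT library. Of the 8 club markers only Scgb1a1 was used for this ratio, and their median log2FC in C/C against WT was -0.74. Whether the order of groups holds with another club marker was not tested. WT above C/+ by this ratio was not particular to Muc5b, since Scgb1a1 itself rose in C/+. Muc1, Muc4, Muc20 and Spdef, with no change called by edgeR, also had lower ratios in every C/+ library than in any WT library. For Muc1 the ratios were 2120 to 6628 in WT and 182 to 473 in C/+. In C/C the ratios of these genes overlapped those of WT.

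The same ratio was taken for the goblet cell products. Tff2 had 0.889, 1.79 and 0.512 counts per 1000 Scgb1a1 counts in WT, 0.381, 0.297 and 0.157 in C/+, with 0 and 0.0949 in C/C, so the 3 groups again did not overlap and WT was highest. Clca1 had 1.87, 0.115 and 0 in WT, 0.755, 0.464 and 0.236 in C/+, with 0.201 and 0 in C/C, so WT spanned both other groups. Per 1000 counts of Msln, a mesothelial marker, Muc5b ran at 861, 219 and 264 in WT, 276, 370.0 and 201 in C/+, with 60.2 and 149 in C/C, where WT and C/+ overlapped and C/C lay below both.

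**Figure D5:**
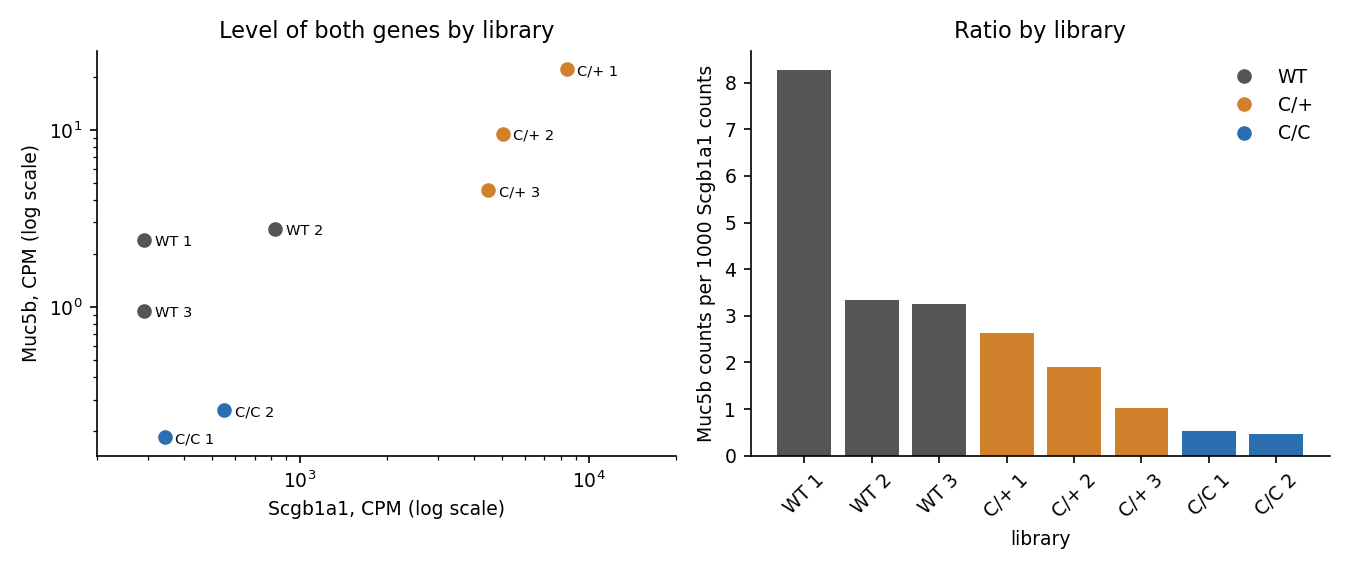
Left, Muc5b against Scgb1a1 in CPM on 2 log axes with 1 point per library; right, Muc5b counts per 1000 Scgb1a1 counts by library on an axis from 0. C/+ libraries are highest in both genes, C/C and WT overlap in Scgb1a1 but not in Muc5b, and the ratio runs from 8.27 in WT 1 to 0.474 in C/C 2.

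Of 15 further genes with mucin or sialomucin names, 13 matched a row and 6 were tested. Emcn, the endothelial sialomucin endomucin, was the 1 called higher in C/+ than in WT (2.17 ± 1.40 to 10.6 ± 2.96 CPM, log2FC 2.30, adjusted p = 0.0271) and the 1 called lower in C/C (0.408 ± 0.123 CPM, log2FC -4.69 against C/+, adjusted p = 0.00244). It is also among the endothelial markers above. Between C/C and WT, edgeR called 0 of the 6 (2 with p under 0.05 before adjustment, 1 with DESeq2). Over all tested genes the shares called were 3.92% in C/+ against WT, 7.08% in C/C against C/+ and 2.98% in C/C against WT. Among the uncalled genes, Cd164, a sialomucin of the endolysosomal membrane, stood at 199.7 ± 16.2 CPM in WT, 192 ± 15.0 in C/+, with 224 ± 15.8 in C/C. Cd24a, a small mucin-like surface protein, stood at 46.6 ± 12.3, 54.4 ± 12.7 and 44.1 ± 2.83 CPM, and Mucl3 at 4.66 ± 0.573, 4.55 ± 1.17 and 7.68 ± 0.967 CPM in the same order. The C/C libraries of Mucl3 lay above all others. Muc6, Muc15 and Mucl1 had 0 counts in every library.

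Among 24 other goblet cell products and factors, 15 were tested, of which 3 rose and 1 fell in C/+ against WT, while 3.42% of all tested genes were called higher and 0.503% lower. Bpifb1, a secreted antimicrobial protein of airway secretory cells, rose from 4.72 ± 3.42 to 35.2 ± 22.2 CPM (log2FC 2.94, adjusted p = 0.0391). Gabrp, a GABA receptor subunit, rose from 1.85 ± 1.06 to 14.1 ± 3.70 CPM (log2FC 3.00, adjusted p = 0.01), and Ltf, which encodes lactoferrin, rose too (log2FC 3.86, adjusted p = 0.0439). Slc26a4, the anion exchanger pendrin, fell from 52.8 ± 21.8 to 22.8 ± 7.79 CPM (log2FC -1.22, adjusted p = 0.0464).

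In C/C against C/+ the same 3 genes that had risen were called lower, and Xbp1, the transcription factor of secretory capacity, was called higher, while 5.33% of all tested genes were called lower and 1.75% higher. Bpifb1 fell to 0.816 ± 0.505 CPM (log2FC -5.45, adjusted p = 0.00631) and Gabrp to 1.07 ± 0.476 CPM (log2FC -3.73, adjusted p = 0.00223), and Ltf fell to 0 and 1 counts (adjusted p = 0.00816). Xbp1 rose from 198 ± 15.8 to 270.5 ± 14.7 CPM (log2FC 0.45, adjusted p = 0.0347). Between C/C and WT, edgeR called 0 of the 15 (5 with p under 0.05 before adjustment, 2 with DESeq2), beside 2.98% of all tested genes. The median log2 fold change of the 15 was -0.01, -0.10 and -0.23 in the 3 comparisons, beside 0.00496, -0.00817 and -0.026 over all tested genes. The secreted trefoil and resistin-like genes Tff1 and Retnlb had 0 counts everywhere, and Tff3 had 1 count in all.

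Of 28 enzymes of mucin-type O-glycosylation, 20 were tested, and edgeR called 0 in C/+ against WT (3 with p under 0.05 before adjustment, 2 with DESeq2), beside 3.92% of all tested genes. Galnt6, which starts O-glycan chains, was the 1 called in each other comparison, beside 7.08% and 2.98% of all tested genes. It had 26, 15 and 54 counts in WT, 38, 14 and 14 in C/+, with 2 and 5 in C/C. It fell in C/C against C/+ (log2FC -3.34, adjusted p = 0.0156) and against WT (log2FC -3.16, adjusted p = 0.0413), from 0.906 ± 0.302 and 0.796 ± 0.181 to 0.0881 ± 0.0597 CPM. Its WT and C/+ libraries overlapped, unlike those of Muc5b.

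All 19 genes of regulated granule secretion were tested, and 2 were called in C/+ against WT, beside 3.92% of all tested genes. Marcks, an actin-binding substrate of protein kinase C, rose from 5.71 ± 0.560 to 11.7 ± 3.97 CPM (log2FC 1.04, adjusted p = 0.0399). P2ry2, the nucleotide receptor that triggers mucin release, fell from 23.9 ± 2.69 to 14.5 ± 0.776 CPM (log2FC -0.72, adjusted p = 0.0156). In C/C against C/+, Marcks fell to 2.76 ± 0.0628 CPM (log2FC -2.09, adjusted p = 0.00244). Between C/C and WT, edgeR called 0 of the 19 (3 with p under 0.05 before adjustment, 1 with DESeq2), beside 2.98% of all tested genes.

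All 18 receptors and signalling genes upstream of goblet cell differentiation were tested. EdgeR called 1 in C/+ against WT and 1 in C/C against WT, beside 3.92% and 2.98% of all tested genes. Foxm1, a proliferation-linked forkhead factor, rose in C/+ against WT from 3.33 ± 0.700 to 7.19 ± 2.20 CPM (log2FC 1.10, adjusted p = 0.0472). In C/C against C/+ edgeR called 0 of the 18 (4 with p under 0.05 before adjustment, 1 with DESeq2), beside 7.08% of all tested genes. Il4ra, the receptor chain shared by IL-4 and IL-13, fell in C/C against WT from 72.2 ± 4.55 to 47.5 ± 4.02 CPM (log2FC -0.60, adjusted p = 0.0203), with C/+ between them at 61.96 ± 1.76 CPM. The medians of these 18 were -0.22, -0.04 and -0.19 in the 3 comparisons, beside 0.00496, -0.00817 and -0.026 over all tested genes.

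The genes with the most similar pattern were found by the root mean square distance between log2 CPM profiles over the same 8 libraries, each centred on its own mean, among 12441 genes. The 5 nearest to Muc5b were Aplnr, the apelin receptor (0.468), Gja4, a connexin (0.479), Pxdn, peroxidasin (0.490), Nkain4 (0.518) and Myct1 (0.535), against a median distance of 2.14. Their mean levels, like that of Muc5b, were highest in C/+ and lowest in C/C, as for Aplnr with 15.0 CPM in the former and 0.369 CPM in the latter. None of these 5 genes is among the club markers or in another marker list used here, and their cell types were not tested. The 5 nearest to Muc1 were Hsf4 (0.0421), Zbed3 (0.0462), Lamp3 (0.0558), Armc5 (0.0585) and Med15 (0.0596), against a median of 0.267. Lamp3, a lamellar body protein and alveolar type 2 marker, stood at 2945, 2839 and 3192 CPM in WT, C/+ and C/C. The 5 nearest to Muc4 were Zfp948 (0.132), Ppp1r9a (0.142), A730011C13Rik (0.145), Kmt2e (0.147) and Gm15675 (0.150), against a median of 0.412, and its overlapping neighbour Muc20 was 3329th.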

How the data were processed

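RNA was extracted with a spin-column kit and DNase, and stranded mRNA libraries were made, per the labels' protocols. The data are raw read counts, deposited by the authors for 43432 mouse Ensembl genes in 8 libraries. The submitters' processing notes name STAR 2.4.2a, DESeq2 and the build GRCh38, a human build, although the identifiers are of mouse. Not given in the sources used here are the counting tool and its strand setting.

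Symbols, coordinates and exon lengths came from GENCODE M21 on GRCm38, which named 42462 rows, and promoter windows from RefSeq on GRCm38.p6. Genes were filtered with filterByExpr by group and scaled by TMM. A single quasi-likelihood model in edgeR 4.0.16 (R 4.3.3), with 1 mean for each group, took in all 8 libraries because so few per group leave few degrees of freedom, and p-values were adjusted over 14906 genes. It was tested on simulated data. CPM per kilobase used the union of exons. Counts per 1000 counts of a marker use raw counts. Total counts of 17057216 to 52319957 make counting error small for genes above a few CPM, where the spread of the libraries limits precision. Floors (3 counts) and 95% intervals cover counting error only. No 2 libraries of a group were identical, and they differed by more than sampling noise (12.2 to 74.2 chi-square units per gene).

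The members and gene lists were chosen with earlier results of these data known. Named genes are the 10 members, the genes of the chromosome 7 cluster, Scgb1a1, Sftpc and Msln, up to 4 called genes per list with the highest mean CPM, and for Muc1, Muc4 and Muc5b the 5 nearest genes (mean of at least 1 CPM, prior count 2). Ltf, Cd164, Cd24a, Mucl3, markers of other cell types, and genes listed at or near 0 counts, were named after their values were seen. A called gene of the secretion list is not reported here. Alternatives tried were size factors of DESeq2 in the edgeR fit, its own Wald test (DESeq2 1.42.0), other low-count filters, the compared groups alone, a replicate block, sex as a covariate, another gene length and leaving out each library.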

Additional observations from a re-analysis of the deposited data

How the results depend on the processing

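Main counts of called genes were 585 (C/+ against WT), 1056 (C/C against C/+) and 444 (C/C against WT), and of members 1, 3 and 0. DESeq2 size factors and a filter of 1 CPM in 2 libraries left all 6 within 1.5 times. The DESeq2 Wald test gave 1233 and 1408 genes and 2 and 2 members in the comparisons with WT. No filter gave 1299, 1614 and 1456 genes, with 3 members in C/+ against WT and 2 in C/C against WT. The compared groups alone gave 356 genes and 0 members in C/+ against WT and 1 member in C/C against WT. Sex as a covariate gave 1700 and 1348 genes in the comparisons with WT, with 2 members in C/+ against WT. Genes called higher then made up 61.6% in C/+ against WT, where the main share was 87.2%. Replicate numbers did not pair the libraries (correlations of deviations -0.206 to 0.087), and a replicate block gave 2 members in C/+ against WT, Clca1 (log2FC 4.40, adjusted p = 0.0141) beside Muc5b, and 176 genes and 1 member, Muc5b (adjusted p = 0.0191), in C/C against WT.

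Leaving out each library gave 103 to 729, 185 to 1308 and 30 to 782 genes and 0 to 2, 0 to 3 and 0 to 1 members, and with 1 C/C library left that library was assumed to vary like the other groups. Uncalled changes turned sign for Muc1 (-0.20 to 0.051), Muc4 (-0.17 to 0.40), Spdef (-0.20 to 0.10) and Agr2 (-0.18 to 1.90) in C/+ against WT, for Muc4 (-0.49 to 0.083) and Muc20 (-0.44 to 0.17) in C/C against C/+, and for Muc4 (-0.31 to 0.11) and Clca1 (-5.78 to 0.27) in C/C against WT. With sex as a covariate Muc4 in C/+ against WT was -0.0037. The causes were not tested. The alternatives were run for all genes and for the members, not for other genes named from the lists. The direction of Muc5b was the same in every alternative run. Depth limits Muc5ac, Agr2, Tff2 and Clca1 in C/C, where 3 counts were 0.0688 and 0.0782 CPM.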
